A study of Mus musculus with 4 samples.

Results

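The genes described here encode the enzymes and regulators that make, modify and break down ceramide, the backbone of the sphingolipids, in cultured mouse keratinocytes, Glut1-deficient or wild type for this glucose transporter. The members were 34 genes chosen by pathway role: 12 of de novo synthesis, 4 ceramide synthases, 5 of the branch to sphingomyelin and glycosylceramides, and 13 of breakdown. Of these, 31 had an array row annotated with that gene alone, out of 30142 genes measured in the same way. Sptssa, Ormdl2 and Ormdl3 shared their rows with another gene and were not analysed here.

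RNA came from primary epidermal keratinocytes of C57BL/6J mice of 1 week of age, Glut1-deficient in keratinocytes (KO) or wild type (WT), from 4 mice of each genotype. Both genotypes grew in the same keratinocyte medium with 0.05 mM CaCl2, hydrocortisone, EGF, pituitary extract and insulin. After 3 days, 2000000 cells were reseeded on collagen and collected the next day. Each of the 2 KO and 2 WT arrays held RNA of 2 plates of a genotype combined at random, so KO and WT arrays with the same number share no animal, and the p-values measure the spread between pooled samples. Which part of the gene was removed, and under which driver, was not given in the sources used here. Signal of Slc2a1, which encodes Glut1, was 12.09 and 12.01 in KO keratinocytes, against 13.26 and 13.40 in WT keratinocytes (log2 scale), so it was lower in KO but far above array background.

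Ceramide is built on the endoplasmic reticulum. Serine palmitoyltransferase joins serine to palmitoyl-CoA, a reductase gives the sphingoid base, ceramide synthases attach a second fatty acid, and a desaturase finishes the molecule. Ceramide is then turned into sphingomyelin, glycosylceramides or ceramide phosphate, or is cut back to sphingosine, which can be phosphorylated and finally cleaved. In the epidermis, ceramides are the main lipids of the water barrier in the cornified layer, and differentiating keratinocytes are known to raise their synthesis.

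All values below are log2 signals per gene as deposited, and differences are KO minus WT with the moderated standard error (SE) of limma, n = 2 per group. A gene was called when its Benjamini-Hochberg adjusted p over all 30604 rows with 1 gene symbol was under 0.05. A gene was taken as above background on an array where its signal passed the 95th percentile of 23 background control rows, which lay between 4.36 and 4.87. Levels of different genes are not set against each other, since their probes differ.

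Of the 31 measured sphingolipid genes, 5 rose in KO keratinocytes, 2 fell and 24 were not called. The rises were Kdsr, Cers2, Cers6 and Sgpl1, by 0.60 to 0.75 on the log2 scale, and Sptlc3, for which no fold is given. The falls were B4galt6 by 1.20 and Gba2 by 0.54. The called share was 22.6% of the members, against a background of 7.22% of all rows tested. Members were chosen with earlier results of these data known, so this share and those that follow describe them and do not test the pathway. By direction, 16.1% of the members were higher, against a background of 4.11%, and 6.45% were lower, against a background of 3.11%. KO and WT arrays did not overlap in 23 of 31 members, or 74.2%, against a background of 49.7%. Without overlap, 16 of the 31 were higher in KO and 7 lower, against 23.8% and 25.8% of all rows tested. The median difference was 0.10 over the members and -0.01 over all rows tested. At an unadjusted p under 0.05 there were 16 members, or 51.6%, against a background of 22.0%. Above background on at least 1 array were 26 members, against 55.5% of all rows tested, and 5 were not: Sptssb, Degs2, Fa2h, Ugt8a and Acer1. Of all rows above background on at least 1 array, 12.9% were called, 7.31% higher and 5.55% lower. All 7 called members were among these rows, Sptlc3 through KO replicate 2 alone. The 7 calls lay near the threshold (limma adjusted p from 0.0203 to 0.0432), and all were lost when every row of the table entered the test (adjusted p from 0.105 to 0.166). Without KO replicate 1, KO replicate 2, WT replicate 1 and WT replicate 2, the members called higher numbered 0, 1, 0 and 0, and those called lower 0, 0, 0 and 1. All 7 kept their direction in every one of the alternatives they entered. Their groups did not overlap, so leaving out 1 array could not turn a direction. Settings that changed only the test or the rows tested left the difference as it was.

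**Figure D1:**
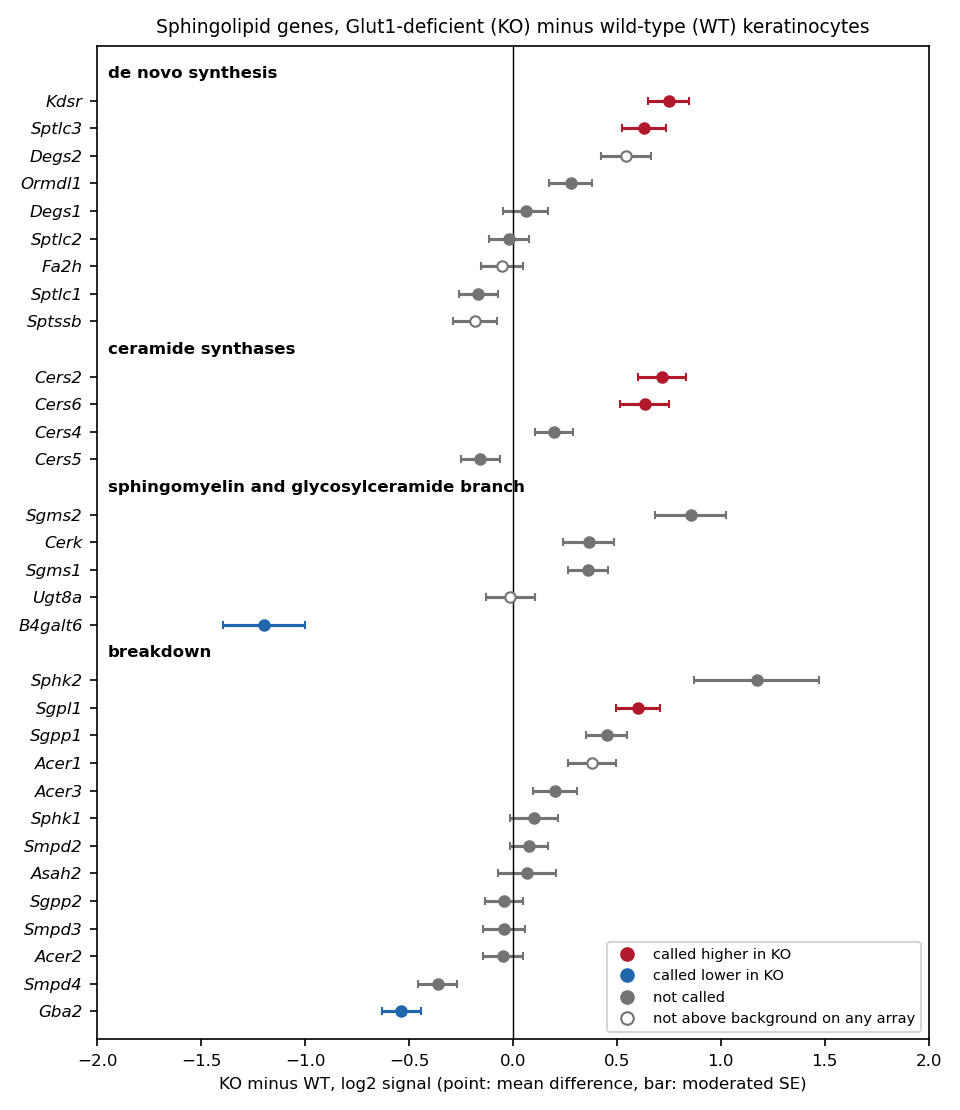
Difference between KO and WT keratinocytes on the log2 scale (x axis) for each of the 31 measured sphingolipid genes (y axis), grouped by pathway role; points are mean differences of 2 arrays per group and bars are moderated standard errors. The called rises Kdsr, Cers2, Cers6 and Sgpl1 lie between 0.60 and 0.75, Sptlc3 is drawn at its fitted difference although both its WT values are below background, the called falls B4galt6 and Gba2 at -1.20 and -0.54, and Sphk2 has the longest bar, at 0.30.

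In the first steps of ceramide synthesis the calls were at the reductase and at a catalytic subunit whose signal lay near background. Of 9 measured genes of de novo synthesis 2 rose, none fell and 7 were not called. The called share was 22.2%, against a background of 7.22% of all rows tested. Kdsr, the reductase that makes dihydrosphingosine from the product of serine palmitoyltransferase, had 10.07 and 9.96 in KO keratinocytes, against 9.23 and 9.30 in WT keratinocytes. Both KO arrays lay above both WT arrays. Kdsr rose by 0.75 (SE 0.10, limma adjusted p = 0.0203), a 1.68-fold difference. Sptlc3, an alternative catalytic subunit of serine palmitoyltransferase that is known to change the chain length of the sphingoid base, had 4.75 and 4.70 in KO keratinocytes, against 4.02 and 4.17 in WT keratinocytes. Only KO replicate 2 was above background. No fold or lower bound is therefore given (limma adjusted p = 0.0322, with measured means of 4.72 in KO and 4.09 in WT). When 1 array was left out, the adjusted p of Kdsr was 0.0511 to 0.109 and that of Sptlc3 0.0819 to 0.166, so both calls needed all 4 arrays.

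The obligatory subunit Sptlc1 and the main catalytic partner Sptlc2 were not called. Sptlc1 had 10.48 and 10.54 in KO keratinocytes, against 10.70 and 10.67 in WT keratinocytes, with a 95% interval of the difference from -0.40 to 0.07. Sptlc2 had 12.77 and 12.86 in KO keratinocytes, against 12.79 and 12.87 in WT keratinocytes. Its groups overlapped, and the interval ran from -0.27 to 0.23. Ormdl1, one of the membrane proteins that hold serine palmitoyltransferase back when ceramide is plentiful, had 6.66 and 6.51 in KO keratinocytes, against 6.28 and 6.34 in WT keratinocytes (difference 0.28, SE 0.10, limma adjusted p = 0.204). The small subunit gene Sptssb was at background on every array.

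The desaturases close the pathway. Degs1, which turns dihydroceramide into ceramide, had 8.33 and 8.49 in KO keratinocytes, against 8.30 and 8.40 in WT keratinocytes. These groups overlapped (interval -0.21 to 0.33). Degs2, which makes the phytoceramides of skin, had 4.79 and 4.57 in KO keratinocytes, against 4.08 and 4.20 in WT keratinocytes. Every one of its values was at or below the floor of its array, so no fold is given (limma adjusted p = 0.0653). Fa2h, the fatty acid hydroxylase that supplies hydroxylated ceramides, was also at background on all arrays.

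**Figure D2:**
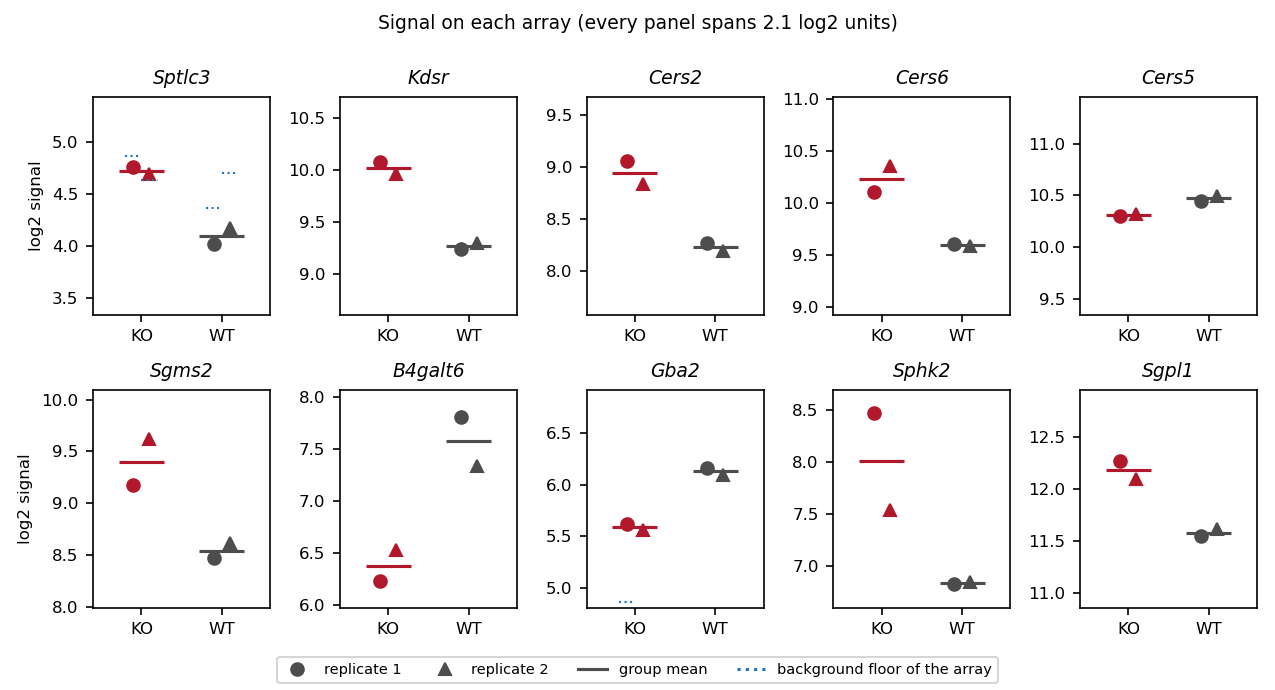
Log2 signal (y axis) on each array for 10 sphingolipid genes in KO and WT keratinocytes (x axis); circles are replicate 1, triangles replicate 2, solid lines group means and dotted lines the background floor of the array. Kdsr, Cers2, Cers6 and Sgpl1 lie higher on both KO arrays, B4galt6 and Gba2 lie lower, Sphk2 differs between the KO arrays (8.47 and 7.54), and Sptlc3 sits near the floor.

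Among the ceramide synthases, which each prefer acyl chains of certain lengths, Cers2 and Cers6 rose, none fell, and Cers4 and Cers5 were not called. That is 50% of 4 genes, against a background of 7.22% of all rows tested. Cers2, which prefers very long acyl chains, had 9.06 and 8.83 in KO keratinocytes, against 8.27 and 8.19 in WT keratinocytes. Cers2 rose by 0.72 (SE 0.12, limma adjusted p = 0.0312), or 1.64-fold. Cers6, which prefers palmitoyl-CoA, had 10.11 and 10.36 in KO keratinocytes, against 9.61 and 9.59 in WT keratinocytes. Cers6 rose by 0.63 (SE 0.12, limma adjusted p = 0.0432), or 1.55-fold. The KO arrays lay above the WT arrays for both genes. Leaving out 1 array gave adjusted p-values of 0.0503 to 0.138 for Cers2 and 0.0775 to 0.166 for Cers6. Cers6 was also lost after median centring of the arrays (0.0562) and with a variance trend (0.0519).

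Cers5, which shares the palmitoyl-CoA preference of Cers6, had 10.30 and 10.33 in KO keratinocytes, against 10.45 and 10.50 in WT keratinocytes. The KO arrays were lower, by 0.16, and the interval ran from -0.39 to 0.08 (limma adjusted p = 0.431). Its interval did not overlap that of Cers6, which ran from 0.33 to 0.94. The difference between these 2 genes was not tested. Cers4 had 5.11 and 5.17 in KO keratinocytes, against 4.96 and 4.93 in WT keratinocytes (difference 0.20, SE 0.09, limma adjusted p = 0.315).

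The promoters of the 4 ceramide synthase genes are shown because 2 of these isoenzyme genes rose and 2 did not pass the test. Each sequence runs from 250 bases before to 50 bases after the transcription start in RefSeq (GRCm38.p6), 5′ to 3′ on the strand of the gene. Capitals mark the palindromic E-box CACGTG and the GC box GGGCGG on either strand, which do not overlap each other in these windows. The windows are chr3:95314940-95315239 (plus strand) for Cers2, chr2:68861191-68861490 (plus strand) for Cers6, chr8:4493155-4493454 (plus strand) for Cers4 and chr15:99772466-99772765 (minus strand) for Cers5.
Cers2: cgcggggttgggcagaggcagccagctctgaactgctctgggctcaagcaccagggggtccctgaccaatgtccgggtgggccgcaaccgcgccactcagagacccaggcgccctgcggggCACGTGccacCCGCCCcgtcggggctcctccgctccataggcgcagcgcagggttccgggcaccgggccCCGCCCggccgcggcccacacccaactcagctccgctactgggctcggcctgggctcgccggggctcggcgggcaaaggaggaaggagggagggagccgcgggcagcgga
Cers6: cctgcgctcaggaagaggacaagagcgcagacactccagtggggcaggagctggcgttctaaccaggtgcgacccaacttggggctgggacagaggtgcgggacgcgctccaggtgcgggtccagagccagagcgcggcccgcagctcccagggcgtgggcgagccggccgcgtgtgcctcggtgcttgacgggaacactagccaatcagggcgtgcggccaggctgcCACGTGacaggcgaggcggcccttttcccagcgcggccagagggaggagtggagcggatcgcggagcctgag
Cers4: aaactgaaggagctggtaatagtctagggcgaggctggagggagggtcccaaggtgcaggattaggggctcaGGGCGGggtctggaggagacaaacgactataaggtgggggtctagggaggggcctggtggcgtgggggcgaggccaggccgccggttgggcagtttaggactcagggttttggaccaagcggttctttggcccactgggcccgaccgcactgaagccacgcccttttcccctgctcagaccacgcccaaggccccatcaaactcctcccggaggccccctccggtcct
Cers5: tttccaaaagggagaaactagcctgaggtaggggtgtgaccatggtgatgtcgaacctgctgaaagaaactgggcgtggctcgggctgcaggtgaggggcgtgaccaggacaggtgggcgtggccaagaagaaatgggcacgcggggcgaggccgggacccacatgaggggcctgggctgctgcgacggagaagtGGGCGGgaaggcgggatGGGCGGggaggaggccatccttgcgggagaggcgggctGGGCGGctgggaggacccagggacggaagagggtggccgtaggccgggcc

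The E-box stood in the windows of Cers2 and Cers6, starting 129 and 22 bases before the transcription start, and in neither of the windows of Cers4 and Cers5. The GC box stood 2 times in Cers2, 0 times in Cers6, 1 time in Cers4 and 3 times in Cers5. A second Cers2 window in the same table, chr3:95318580-95318879 (plus strand), held neither. Over all 32851 promoter windows, 7.15% held CACGTG and 35.7% held GGGCGG. Windows were listed for 31 of the 34 members, 46 in all, of which 8 held CACGTG and 27 held GGGCGG. By gene, CACGTG was found in 2 of 6 called members and 5 of 22 measured members that were not called. These 2 were Cers2 and Cers6 themselves. Of all genes with a window, 8.09% held CACGTG. The composite element TGATGNAA was found in 1 member window of the 46, in Sgms2, and in 3.97% of all windows. These are letter matches and no measure of binding.

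In the branch that turns ceramide into sphingomyelin and glycosphingolipids, 1 of 5 genes fell, none rose and 4 were not called. The called share was 20%, against a background of 7.22% of all rows tested. B4galt6, a lactosylceramide synthase that adds galactose to glucosylceramide, had 6.23 and 6.53 in KO keratinocytes, against 7.81 and 7.33 in WT keratinocytes. The KO arrays lay below the WT arrays by at least 0.81. B4galt6 fell by 1.20 on the log2 scale (SE 0.20, limma adjusted p = 0.0319), a 2.29-fold difference. The call was lost without KO replicate 1 (0.140), KO replicate 2 (0.0708) or WT replicate 1 (0.0909) and held without WT replicate 2 (0.0367). The related lactosylceramide synthase gene B4galt5, which is no member, had 7.30 and 7.24 in KO keratinocytes, against 6.65 and 6.72 in WT keratinocytes. It rose by 0.59 (SE 0.09, limma adjusted p = 0.0301), and its call was lost whichever array was left out (0.0732 to 0.164). Ugcg, which makes glucosylceramide, the substrate of both, had 9.56 and 9.73 in KO keratinocytes, against 9.79 and 9.79 in WT keratinocytes (limma adjusted p = 0.517).

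Sgms2, the sphingomyelin synthase of the plasma membrane, had 9.18 and 9.62 in KO keratinocytes, against 8.47 and 8.62 in WT keratinocytes. Both KO arrays were higher, and the difference of 0.85 (SE 0.17) just missed the threshold (limma adjusted p = 0.0501). Sgms1, the sphingomyelin synthase of the Golgi, had 7.55 and 7.62 in KO keratinocytes, against 7.20 and 7.26 in WT keratinocytes (difference 0.36, SE 0.10, limma adjusted p = 0.0961). Cerk, the ceramide kinase, had 6.19 and 5.94 in KO keratinocytes, against 5.65 and 5.75 in WT keratinocytes (difference 0.37, SE 0.12, limma adjusted p = 0.166). In none of the 3 did the groups overlap. Ugt8a, the galactosylceramide synthase of myelin, was at background on every array.

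The 13 genes of breakdown outside the lysosome held 1 rise, 1 fall and 11 genes that were not called. The called share was 15.4%, against a background of 7.22% of all rows tested. Among genes above background on at least 1 array it was 16.7%, near the 12.9% of all such rows. Sgpl1, the lyase that irreversibly cleaves sphingosine 1-phosphate and so ends the pathway, had 12.26 and 12.10 in KO keratinocytes, against 11.54 and 11.61 in WT keratinocytes. Sgpl1 rose by 0.60 (SE 0.11, limma adjusted p = 0.0381), or 1.52-fold, with adjusted p-values of 0.0645 to 0.182 when 1 array was left out. Gba2, the glucosylceramidase outside the lysosome, had 5.62 and 5.56 in KO keratinocytes, against 6.16 and 6.09 in WT keratinocytes. Gba2 fell by 0.54 (SE 0.10, limma adjusted p = 0.0382), a 1.45-fold difference, with adjusted p-values of 0.101 to 0.202 when 1 array was left out. For both genes the groups did not overlap.

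The kinases and phosphatases that interconvert sphingosine and sphingosine 1-phosphate come just before the lyase. Sphk2, a sphingosine kinase found in the nucleus and mitochondria, had 8.47 and 7.54 in KO keratinocytes, against 6.82 and 6.84 in WT keratinocytes. Both KO arrays were above the WT arrays, but they differed from each other by more than KO replicate 2 differed from the WT arrays. The difference of 1.17 (SE 0.30) was the highest among the members and was not called (limma adjusted p = 0.0908). It was 1.64 without KO replicate 2, where it passed (0.0278), and 0.71 without KO replicate 1 (0.0836). Sphk1, the kinase of the cytosol and plasma membrane, had 5.57 and 5.37 in KO keratinocytes, against 5.42 and 5.31 in WT keratinocytes, and its groups overlapped (interval -0.19 to 0.40). Sgpp1, a sphingosine 1-phosphate phosphatase, had 9.02 and 9.12 in KO keratinocytes, against 8.64 and 8.60 in WT keratinocytes (difference 0.45, SE 0.10, limma adjusted p = 0.0612). Its homologue Sgpp2 had signal above the floor on WT replicate 1 only, and its difference was -0.04.

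Ceramidases and sphingomyelinases gave no call. Acer3, an alkaline ceramidase of the endoplasmic reticulum and Golgi, had 9.80 and 9.65 in KO keratinocytes, against 9.49 and 9.55 in WT keratinocytes (limma adjusted p = 0.363). Acer2, the ceramidase of the Golgi, had overlapping groups with an interval from -0.29 to 0.20, and so did the neutral ceramidase gene Asah2, with an interval from -0.29 to 0.42. Acer1, the ceramidase known from differentiated epidermis, had 4.08 and 4.06 in KO keratinocytes, against 3.57 and 3.81 in WT keratinocytes, all below the floor. Smpd4, a neutral sphingomyelinase, had 7.11 and 7.15 in KO keratinocytes, against 7.48 and 7.52 in WT keratinocytes. The KO arrays were lower by 0.36 (SE 0.09, limma adjusted p = 0.0890). Smpd2, another neutral sphingomyelinase, differed by 0.08 with an interval from -0.15 to 0.31, and Smpd3 by -0.04, above the floor on WT replicate 1 only.

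**Figure D3:**
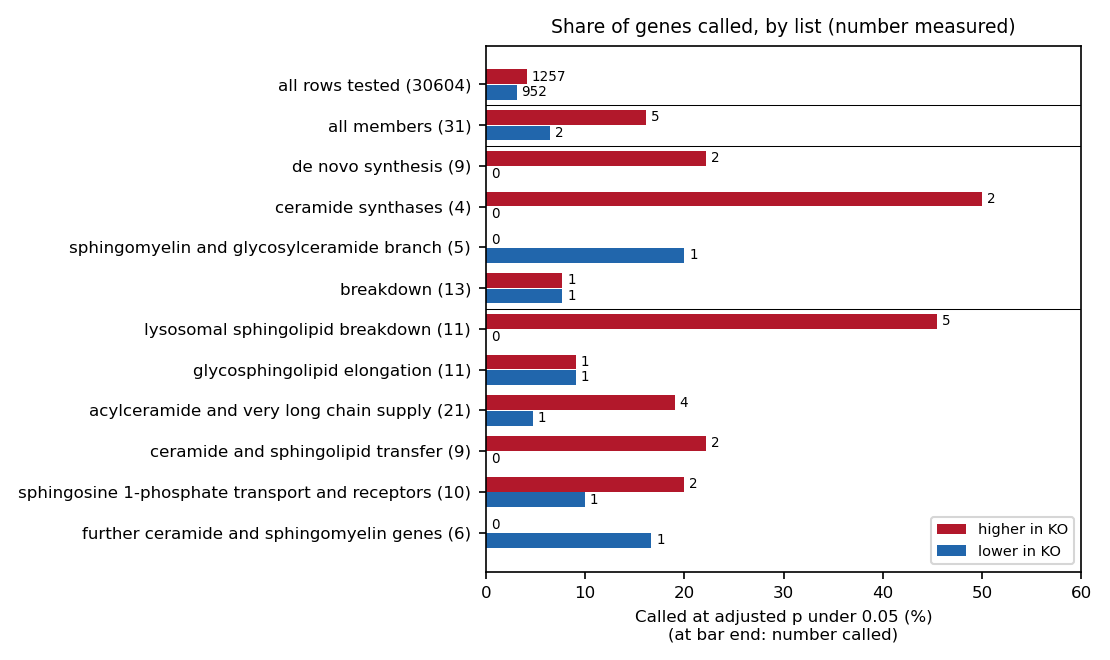
Percentage of measured genes called higher (red) or lower (blue) in KO keratinocytes (x axis) for all rows tested, all sphingolipid members, their 4 role groups and 6 lists of other sphingolipid genes (y axis, with the number measured). The members had 5 higher and 2 lower of 31, and the lysosomal list had 5 higher and 0 lower of 11, against 4.11% higher and 3.11% lower over all rows.

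Sphingolipid genes that are not members were counted by the same test, in lists drawn up by role with earlier results of these data known. The background for every list is 4.11% called higher and 3.11% lower of all rows tested. Of rows above background on at least 1 array it is 7.31% and 5.55%. In lysosomal breakdown, where sphingolipids are taken apart by acid hydrolases and their activator proteins, 5 of 11 measured genes rose, none fell and 6 were not called, with a median difference of 0.77. Psap, the precursor of the saposin activators, rose by 0.99, Hexa, a subunit of the hexosaminidase that degrades gangliosides, by 3.06, and the sialidase gene Neu1 by 1.21. Galc, the galactosylceramidase, rose by 0.89, and Gm2a, the ganglioside activator, by 0.77. The acid ceramidase gene Asah1 had 12.63 and 12.40 in KO keratinocytes, against 11.73 and 12.20 in WT keratinocytes (limma adjusted p = 0.170). The acid sphingomyelinase gene Smpd1 had 7.70 and 7.57 in KO keratinocytes, against 7.41 and 7.35 in WT keratinocytes (limma adjusted p = 0.232). In the transfer list 2 of 9 genes rose and none fell, the late endosomal cholesterol transporters Npc1 by 1.17 and Npc2 by 0.74, with a median difference of 0.13.

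In the list of acylceramides and their very long acyl chains, 4 of 21 genes rose, 1 fell and 16 were not called, with a median difference of 0.06. Abca12, which loads glucosylceramide into lamellar granules, had 14.16 and 14.04 in KO keratinocytes, against 9.31 and 9.29 in WT keratinocytes, and rose by 4.80. The lipoxygenase gene Aloxe3 rose by 1.74, the elongase gene Elovl4 by 1.21 and the acylceramide transacylase gene Pnpla1 by 0.83, while the dehydratase gene Hacd4 fell by 0.87. Pnpla1 was at background on WT replicate 2 and Hacd4 on KO replicate 1, so these 2 differences rest partly on values at background. Cers3, the ceramide synthase of epidermal acylceramides, had 10.99 and 10.77 in KO keratinocytes, against 10.14 and 10.42 in WT keratinocytes. Its groups did not overlap, and its difference of 0.60 (SE 0.14) was not called (limma adjusted p = 0.0743).

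Sphingosine 1-phosphate leaves cells through Spns2, which rose by 0.95. The lipid phosphate phosphatase genes Plpp3 and Plpp1 went opposite ways, with a rise of 0.82 for Plpp3 and a fall of 0.69 for Plpp1, so that 2 of 10 genes of this list rose, 1 fell and 7 were not called (median 0.01). Of the receptors, S1pr2 alone was above background, and its difference was -0.06. In glycosphingolipid elongation 1 of 11 genes rose, B4galt5, and 1 fell, the GM3 ganglioside synthase gene St3gal5, by 0.49 (median -0.03). Of 6 further genes 1 fell, Smpdl3b, a membrane-bound relative of acid sphingomyelinase, by 1.01 (median -0.01).

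Most of these calls were lost in at least 1 of the fits without an array, which leave 1 array in a group. Calls over all genes also fell in these fits. The differences of the genes below kept their direction, which was fixed in advance, since KO and WT arrays overlapped for none of them. Abca12 and Aloxe3 were called whichever array was left out (limma adjusted p at most 0.0309), and Hexa lost its call only without WT replicate 1 (0.0516). Elovl4, Npc1 and Smpdl3b lost theirs without KO replicate 1 (0.0524, 0.0524 and 0.0557) or WT replicate 1 (0.0750, 0.0504 and 0.0590). Galc, Psap, Neu1, Hacd4, Npc2 and Spns2 kept theirs only without KO replicate 2, with adjusted p-values of up to 0.0934, 0.0717, 0.0773, 0.0868, 0.115 and 0.153 without another array. Gm2a, B4galt5, St3gal5, Pnpla1, Plpp1 and Plpp3 lost theirs whichever array was left out (up to 0.112, 0.164, 0.223, 0.0874, 0.199 and 0.110).

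Markers of keratinocyte state and of other cells were read beside these results, as the log2 of the summed linear signal of each list. The background for the calls is again 4.11% higher and 3.11% lower of all rows tested. The basal keratinocyte list, led by Krt5 and Krt14, summed to 18.99 and 18.72 in KO keratinocytes, against 19.30 and 19.41 in WT keratinocytes, with 1 of 8 genes called lower, Col17a1. Without overlap, 6 of the 8 were lower in KO and 2, Trp63 and Dst, were higher. Over all rows tested, 25.8% were lower and 23.8% higher without overlap. The differentiation list summed to 11.13 and 11.23 in KO keratinocytes, against 10.13 and 10.32 in WT keratinocytes, with 4 of 12 called higher and 1 called lower. Its rises were Cdsn, Sbsn, Klk7 and Grhl1 and its fall was Ivl. Without overlap, 6 of the 12 were higher in KO and 4 lower, Krt10 among the lower. Lor and Tgm3 were at background on all arrays and Krt1 on all but WT replicate 1. The melanocyte list summed to 12.38 and 11.15 in KO keratinocytes, against 10.57 and 10.08 in WT keratinocytes. Of its 8 genes 1 was called higher, Pmel, and without overlap 6 were higher in KO and 0 lower. KO replicate 1 was highest, as for Sphk2 and Hexa, but also for Kdsr, Cers2 and Sgpl1. For Cers6 and Sgms2, KO replicate 2 was highest. The fibroblast list summed to 7.65 and 7.87 in KO keratinocytes, against 7.22 and 7.22 in WT keratinocytes. Of its 7 genes 1 was called higher, Dcn, which was at background on both WT arrays. Without overlap all 7 were higher in KO, 2 of them at background on every array. The leukocyte list summed to 9.49 and 10.31 in KO keratinocytes, against 8.25 and 8.33 in WT keratinocytes, with 1 of 8 genes called higher, Cd68, a lysosomal protein, and the other 7, Ptprc included, at background. The endothelial list summed to 10.22 and 9.63 in KO keratinocytes, against 7.06 and 7.25 in WT keratinocytes, with 1 of 5 genes called higher, Kdr, and 3 at background, Cdh5 included. The part of these differences in the sphingolipid results was not tested, and fewer cells of a type cannot be told apart from less RNA per cell.

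**Figure D4:**
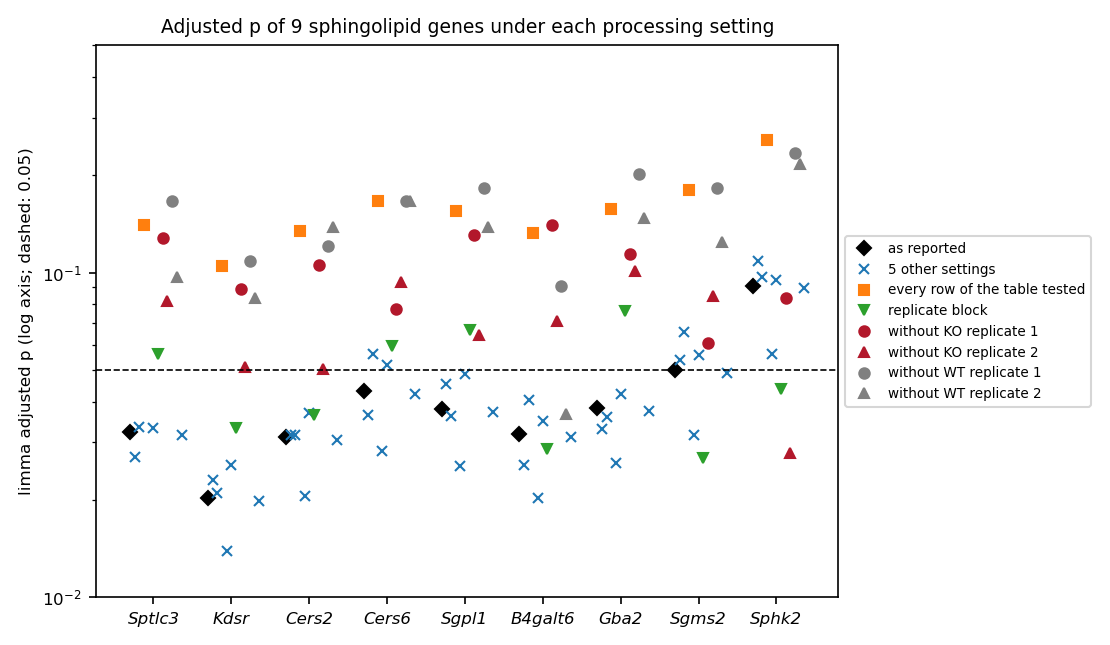
Limma adjusted p (y axis, log scale) of 9 sphingolipid genes (x axis) as reported and under each of the 11 alternative settings, with the 0.05 threshold dashed. The 7 called genes lie between 0.0203 and 0.0432 as reported and above the threshold when every row is tested, and Sgms2 lies at 0.0501.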

How the data were processed

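The deposited values were log2 signals per transcript cluster from 4 Affymetrix MTA-1_0 arrays, which per the submitters' processing notes the authors made in Affymetrix Expression Console by RMA. Per the labels these are SST-RMA signals at gene level. The software version, annotation release and build were not given in the sources used here. This normalization equalises the arrays, so a shift shared by most genes is removed. Array medians lay between 4.19 and 4.24. Of 72688 rows, 6732 were control rows, and GEO's platform annotation named 1 symbol for 30604, several for 2146 and none for 33206. Symbols of 827 rows were updated through RefSeq.

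Genotypes were compared with limma 3.58.1 in R 4.3.3 (lmFit, eBayes, two-sided, no replicate block), with the brightest row per gene; each member had 1 row. No fold is given where a group was at or below the floor on both its arrays. On simulated arrays (30604 rows) the fit recovered 58.0% of 2-fold and 91.1% of 4-fold changes. Far fewer rows were changed there than were called in these data, so these shares do not carry over. Named are the members and, per other list, up to 4 called genes with the smallest p or the gene with the highest mean; Gm2a, Elovl4, Asah1, Smpd1, Cers3, Ugcg, S1pr2 and the named markers were added after their values were seen. Members and lists were chosen with earlier results of these data known. Alternatives changed the normalization, the rows tested, variance moderation, the replicate block, the row choice and the arrays used.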

Additional observations from a re-analysis of the deposited data

How the results depend on the processing

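Testing all 72688 rows, controls and unnamed rows among them, gave 74 calls instead of 2209, with 0 members called higher and 0 lower. Both the variance moderation and the adjustment then run over all these rows, and their effects were not told apart. Leaving out 1 array left 314 to 1214 calls over all genes, 0 to 1 members higher and 0 to 1 lower. With rows at or above the median mean, the median difference over the members was 0.20, over fewer members, and over those above background on at least 1 array, a setting chosen after seeing the data, it was 0.15. Leaving out 1 array gave medians of 0.11 to 0.17. The other settings (quantile normalization, median centring, a variance trend and averaged rows) left 1987 to 2225 calls over all genes, 4 to 6 members higher and 2 lower. Replicate numbers do not pair the samples, since plates were combined at random (correlation of the deviations of KO replicate 1 and WT replicate 1 across rows -0.23). With the replicate block, 1849 rows were called, with 4 members higher and 1 lower: Sptlc3, Cers6, Gba2 and Sgpl1 were not called, and Sgms2 and Sphk2 were. Directions turned in 7 uncalled members with differences near 0. After quantile normalization Sptlc2 was at 0.0056 and Ugt8a at 5.22e-05. Leaving out 1 array gave -0.061 to 0.023 for Sptlc2, -0.018 to 0.14 for Degs1, -0.13 to 0.022 for Fa2h, -0.13 to 0.10 for Ugt8a, -0.12 to 0.029 for Smpd3, -0.087 to 0.22 for Asah2 and -0.097 to 0.0032 for Acer2. With 2 arrays per group the number of arrays limits the precision.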
